A study of Homo sapiens with 16 samples.

Results

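The human mitochondrial genome (mtDNA) encodes 7 subunits of complex I, the NADH dehydrogenase of the respiratory chain: MT-ND1, MT-ND2, MT-ND3, MT-ND4, MT-ND4L, MT-ND5 and MT-ND6. These genes were chosen by symbol from a table of 58051 gene identifiers. All 7 were found there, and 7 of 7 passed the filter of a mean normalized count of at least 10. RNA had been sequenced from P493-6, a human B cell line that carries a MYC transgene switched off by doxycycline and an EBNA2 fusion protein that works only with oestrogen. The 16 libraries fall into 4 groups of 4, in a design that sets the effect of blocking NMT1 and NMT2, the enzymes that attach myristate to proteins, side by side at 2 MYC levels. High-MYC cells had grown in plain DMEM with serum, whereas medium-MYC cells had been given 0.1 µg/mL doxycycline and 1 µM β-estradiol over the preceding 24 h. At each level, cells then received 100 nM IMP1088, the inhibitor, or DMSO as the control, for 24 h by the sample titles. MYC level, doxycycline and estradiol cannot be told apart in this design, and all cells come from a single line.

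Complex I oxidises NADH in the mitochondrial matrix, passes the electrons to ubiquinone and pumps protons across the inner membrane. Its mtDNA-encoded subunits form the core of the membrane arm, while all its other subunits are made from nuclear genes and imported. Both mtDNA strands are transcribed as long precursors that are cut into single mRNAs, so that the level of each mRNA depends on transcription of the shared precursor and on its own stability.

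Of the 7 genes, 6 are read from the heavy-strand precursor, and MT-ND6 is read from the light strand. All are single protein-coding exons without introns in GENCODE release 29 on GRCh38. MT-ND1 lies at chrM:3307-4262, MT-ND2 at chrM:4470-5511, MT-ND3 at chrM:10059-10404, MT-ND4L at chrM:10470-10766, MT-ND4 at chrM:10760-12137, MT-ND5 at chrM:12337-14148 and MT-ND6, on the minus strand, at chrM:14149-14673. The starts of the coding sequences, 30 bases each from the GENCODE transcripts, are shown because the annotated genes begin at their start codon, which is in capitals and is not always ATG:
MT-ND1: ATAcccatggccaacctcctactcctcatt
MT-ND2: ATTaatcccctggcccaacccgtcatctac
MT-ND3: ATAaacttcgccttaattttaataatcaac
MT-ND4L: ATGcccctcatttacataaatattatacta
MT-ND4: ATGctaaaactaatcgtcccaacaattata
MT-ND5: ATAaccatgcacactactataaccacccta
MT-ND6: ATGatgtatgctttgtttctgttgagtgtg

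The ends of the same sequences differ in whether a whole stop codon is encoded, and the capitals mark the bases after the last sense codon:
MT-ND1: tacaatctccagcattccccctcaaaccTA
MT-ND2: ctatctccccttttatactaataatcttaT
MT-ND3: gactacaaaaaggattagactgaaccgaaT
MT-ND4L: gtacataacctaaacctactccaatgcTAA
MT-ND4: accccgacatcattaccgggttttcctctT
MT-ND5: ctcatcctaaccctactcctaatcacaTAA
MT-ND6: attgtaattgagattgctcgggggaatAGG
MT-ND1 ends on 2 bases of a stop codon, and MT-ND2, MT-ND3 and MT-ND4 end on 1. In such mRNAs the poly(A) tail supplies the missing bases. The base composition sets MT-ND6 apart, with 35.6% G and 7.05% C, against 9.50% to 12.1% G and 29.5% to 36.0% C in the other 6.

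MT-ND4L and MT-ND4 share 7 bases and stay together on a single bicistronic mRNA. The junction at chrM:10734-10792 is shown with the shared bases in capitals, where the start codon of MT-ND4 overlaps the stop codon of MT-ND4L in another frame:
MT-ND4L to MT-ND4: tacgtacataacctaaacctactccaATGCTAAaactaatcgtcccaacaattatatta
Reads on these 7 bases belong to both genes. Whether the deposited counts used strand is not given in the sources used here. The precursors of both strands run across every gene, so reads of a gene and of the precursor antisense to it cannot be told apart.

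The libraries held 8755296 to 13858534 reads, and 19291 to 63158 of these were on MT-ND1, 35895 to 80919 on MT-ND4 and, at the lower end, 1460 to 2751 on MT-ND6. MYC checked the labels, with 31649 ± 2130 normalized counts (SD, n = 4) in high-MYC controls, 47542 ± 505 with inhibitor, 959 ± 48.7 in medium-MYC controls and 1382 ± 51.2 with inhibitor. Of 8 B cell markers, 7 had a median of at least 100, and CR2 was listed at 0 in every high-MYC library. Markers of other cell types summed to 148 to 343, with CD3D, MPO, KRT18 and HBB under 10 in every library. Their sum was higher at medium MYC, at 290 in controls against 157 at high MYC, mainly through COL1A1 (164 against 7.09). EPCAM went the other way (13.1 against 62.1). Over all libraries CD3E measured 28.0 to 75.3 and LYZ 40.7 to 69.9. The part of these markers in the results below was not tested. Whether the replicates came from separate cultures is not stated, so p-values measure the spread between these libraries, which may be technical.

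Among DMSO controls, normalized counts of all 7 complex I mRNAs were lower in medium-MYC than in high-MYC cells, by 1.21-fold (MT-ND3) to 1.80-fold (MT-ND1). These counts, like shares of reads, are relative to the other RNAs of a library. The amount of RNA per cell cannot be read from them. Across all genes, 37.3% of 13765 tested genes were called lower in this comparison and 38.9% higher, so that a call as such is common. Calls rest on a limma adjusted p under 0.05. The median log2 change of the 7 genes was -0.44, against 0.02 for all tested genes, with an interquartile range of -0.49 to 0.51. In bulk RNA, a smaller part of cells with a high level and less of an RNA in each cell cannot be told apart.

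MT-ND1 forms the joint where the membrane arm meets the ubiquinone site. Its normalized counts were 47568, 40456, 38629 and 36833 in the high-MYC controls of replicate 1 to 4, and 20926, 22140, 24680 and 22984 in the medium-MYC controls. The highest medium-MYC library lay far below the lowest high-MYC library. The log2 change was -0.85 (95% interval -0.96 to -0.73, limma adjusted p = 1.25e-11), a 1.80-fold lower level.

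MT-ND2, MT-ND4 and MT-ND5 are the antiporter-like subunits that make up most of the proton-pumping membrane arm. MT-ND2 measured 42776, 37097, 35667 and 33424 in high-MYC controls and 19631, 20684, 22487 and 21137 in medium-MYC controls. The groups did not overlap, and the log2 change was -0.82 (-0.93 to -0.71, limma adjusted p = 3.90e-12). MT-ND4 measured 60945, 55284, 52074 and 49320 at high MYC and 40224, 41490, 43883 and 42110 at medium MYC. Here too every medium-MYC library was below every high-MYC library, but the log2 change of -0.37 (-0.47 to -0.28, limma adjusted p = 2.18e-07) was smaller than that of MT-ND2, and the 95% intervals of both did not meet. Between them lay MT-ND5, with 38231, 35150, 33510 and 31521 at high MYC and 22360, 22981, 24592 and 23389 at medium MYC. Its log2 change was -0.57 (-0.66 to -0.47, limma adjusted p = 1.62e-10), without overlap between the groups.

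MT-ND3, MT-ND4L and MT-ND6 are small subunits packed between MT-ND1 and the antiporter-like subunits. For MT-ND3, which carries a loop beside the ubiquinone site, high-MYC controls measured 4858, 4489, 4033 and 3722 and medium-MYC controls 3212, 3478, 3775 and 3592. It was the single member whose groups overlapped, because replicate 4 at high MYC lay below replicate 3 at medium MYC. Its log2 change was also the smallest of the 7, at -0.28 (-0.41 to -0.14, limma adjusted p = 0.000506). MT-ND4L measured 4227, 3873, 3383 and 3196 against 2386, 2700, 2822 and 2852, a log2 change of -0.44 (-0.58 to -0.30, limma adjusted p = 4.37e-06). MT-ND6, the light-strand member, measured 2072, 2165, 2493 and 2249 against 1759, 1924, 1278 and 1832. Its groups lay close together without overlapping, with a log2 change of -0.42 (-0.61 to -0.23, limma adjusted p = 0.000337). In all, 6 of 7 members had control groups that did not overlap, where 33.6% of tested genes did so in this direction.

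**Figure D1:**
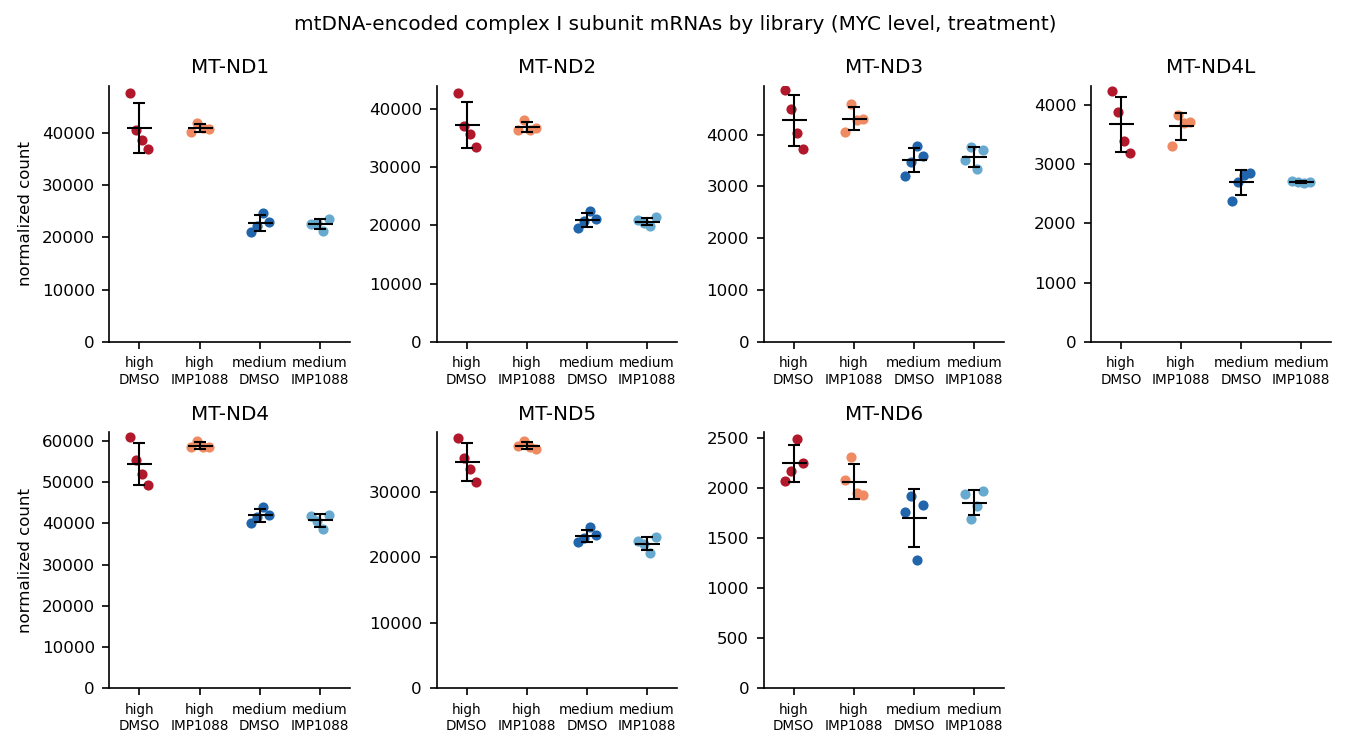
Normalized count (linear axis from 0) of each of the 7 complex I mRNAs in the 16 libraries, by MYC level and treatment; points are libraries, and the black mark and bar are the group mean and SD (n = 4). The medium-MYC points lie below the high-MYC points for MT-ND1, MT-ND2, MT-ND4, MT-ND4L and MT-ND5, whereas DMSO and IMP1088 points overlap for all 7.

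Under IMP1088 the same contrast called 6 of 7 members lower, where 37.8% of tested genes were lower and 39.7% higher. The same 6 had groups that did not overlap, as 35.4% of tested genes did in this direction. These libraries are not those of the control contrast, but both contrasts come from a single fit. MT-ND1 with inhibitor measured 40043, 41862, 40909 and 40687 at high MYC and 22475, 22636, 21252 and 23538 at medium MYC, a log2 change of -0.86 (-0.98 to -0.74, limma adjusted p = 8.21e-12). MT-ND2 measured 36431, 38111, 36356 and 36647 against 20906, 20449, 19872 and 21395, with a log2 change of -0.84 (-0.95 to -0.73, limma adjusted p = 2.81e-12). As among controls, the medium-MYC libraries of both lay far below all high-MYC libraries.

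MT-ND5 measured 37034, 37861, 36932 and 36568 at high MYC with inhibitor and 22567, 22013, 20759 and 23155 at medium MYC. The log2 change was -0.75 (-0.84 to -0.65, limma adjusted p = 1.28e-12). For MT-ND4 the values were 58477, 60065, 58587 and 58454 against 41820, 40572, 38632 and 42161, and the log2 change was -0.53 (-0.63 to -0.43, limma adjusted p = 7.43e-10). Both antiporter-like subunits were without overlap between MYC levels. MT-ND3 ran from 4057 to 4596 at high MYC and from 3336 to 3765 at medium MYC, which did not overlap here, with a log2 change of -0.27 (-0.40 to -0.14, limma adjusted p = 0.000664). MT-ND4L ran from 3308 to 3834 and from 2684 to 2718, with a log2 change of -0.43 (-0.57 to -0.29, limma adjusted p = 6.97e-06).

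MT-ND6 was the member that did not pass the test under the inhibitor. Its libraries measured 2077, 2307, 1946 and 1926 at high MYC and 1937, 1691, 1820 and 1967 at medium MYC. The groups overlapped, and the log2 change was -0.15 (-0.34 to 0.04, limma adjusted p = 0.134). Tested as the difference between the contrasts, the value for MT-ND6 was -0.26 (-0.53 to 0.01, limma adjusted p = 0.25), which did not pass the test. edgeR without a filter called this difference (-0.25, edgeR adjusted p = 0.000237), and without DMSO replicate 3 at medium MYC it was -0.13 (limma adjusted p = 0.402). In a fit of the compared groups alone MT-ND6 was called lower, at -0.15 with a limma adjusted p of 0.0167, as it was with edgeR without a filter (-0.18, edgeR adjusted p = 1.39e-05).

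The other 6 mRNAs of mtDNA were lower as well, in 6 of 6 cases among controls and 6 of 6 with inhibitor. Of all tested genes 37.3% and 37.8% were called lower in these contrasts. Among controls the log2 changes were -0.19 for MT-CO1, -0.37 for MT-CO2 and -0.41 for MT-CO3, which encode the catalytic core of cytochrome c oxidase. They were -0.50 for MT-ATP6 and -0.69 for MT-ATP8, subunits of ATP synthase, and -0.28 for MT-CYB, the cytochrome b of complex III. In this fit the changes of MT-ND1 and MT-ND2 were further below 0 than those of all 6, but the interval of MT-ATP8 (-0.84 to -0.54) overlapped theirs, and under quantile normalization MT-ATP8 (-0.67) was further below 0 than MT-ND2 (-0.55). The 95% intervals of MT-ND1 (-0.96 to -0.73) and MT-CO1 (-0.26 to -0.11) did not meet. MT-ATP8 and MT-ATP6 share 46 bases, and reads on these cannot be split.

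**Figure D2:**
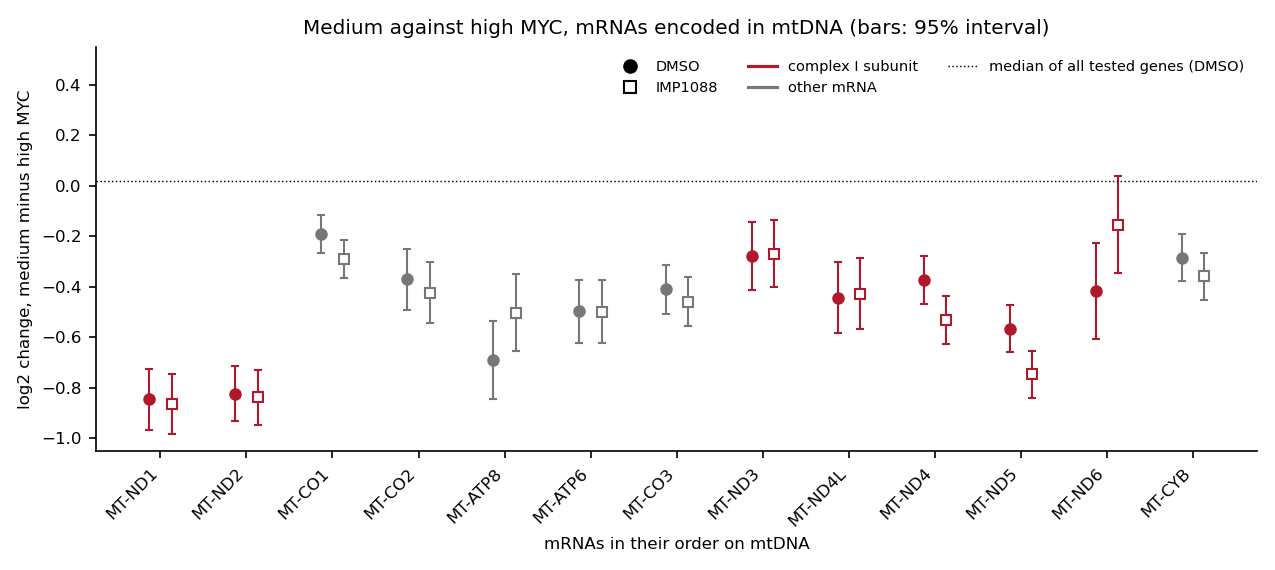
Log2 change at medium against high MYC (linear axis) of the 13 mtDNA mRNAs in map order, filled circles for DMSO and open squares for IMP1088, with 95% intervals from limma; red marks complex I subunits and the dotted line the median of all tested genes, 0.02. All 26 values lie below 0, with MT-ND1 and MT-ND2 at -0.82 to -0.86.

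Under quantile normalization, which forces the same distribution on each library, 7 of 7 members were again lower among controls and 6 of 7 with inhibitor, but the change of MT-ND5 was -0.28 among controls and -0.33 with inhibitor, and those of MT-ND1 and MT-ND2 with inhibitor were -0.56 and -0.42. Calls were lost among the other mRNAs: MT-CO2 had -0.05 among controls (limma adjusted p = 0.257). With inhibitor MT-CO2 had -0.08, MT-CO3 -0.09 and MT-CYB -0.03 (limma adjusted p = 0.0921, 0.186 and 0.428). Values normalized in this way depend on the rank of a gene alone. For the most highly counted genes a change therefore follows steps between neighbouring ranks.

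The share of reads gives the same comparison without the deposited size factors. The 7 genes took 1.71% ± 0.15 (SD, n = 4) of all reads in high-MYC controls and 1.13% ± 0.03 in medium-MYC controls. With inhibitor they took 1.80% ± 0.04 and 1.13% ± 0.04. Of the reads on the 13 mtDNA mRNAs, the 7 held 39.0% to 40.5% in high-MYC controls and 39.0% to 39.8% with inhibitor. At medium MYC they held 34.5% to 34.9% and 33.8% to 34.6%. Every medium-MYC library was thus below every high-MYC library in the part that complex I mRNAs held among mtDNA mRNAs. These shares are a description, with no test.

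Within the 13 mRNAs the members moved unevenly. MT-ND1 held 9.11% ± 0.33 (SD, n = 4) of their reads in high-MYC controls and 6.72% ± 0.14 in medium-MYC controls. MT-ND2 held 8.30% ± 0.23 and 6.22% ± 0.06, and MT-ND5 7.72% ± 0.04 and 6.92% ± 0.07. MT-ND4 held 12.1% ± 0.15 and 12.4% ± 0.16, and MT-ND3 0.952% ± 0.04 and 1.04% ± 0.02. The part held by MT-ND1, MT-ND2 and MT-ND5 was therefore lower at medium MYC in every control library, while that of MT-ND3 was higher in every one and that of MT-ND4 overlapped.

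Compared per kilobase of gene, a scale on which levels of different genes can be set side by side, the order itself differed between MYC levels. In high-MYC controls MT-ND1 led with 42753 ± 4919 normalized counts per kilobase (SD, n = 4), followed by MT-ND4 with 39482 ± 3624 and MT-ND2 with 35740 ± 3827. The ranges of neighbours in this order overlapped over the libraries, but within each library these 3 genes came in the same order. MT-ND5 followed at 19097 ± 1566, then MT-ND4L at 12357 ± 1578 and MT-ND3 at 12356 ± 1445, whose ranges overlapped, and last MT-ND6 at 4276 ± 344. In medium-MYC controls MT-ND4 led with 30426 ± 1105, above MT-ND1 with 23726 ± 1649, MT-ND2 with 20139 ± 1136 and MT-ND5 with 12876 ± 519.7, all without overlap between neighbours. The ranges of MT-ND3 at 10156 ± 681 and MT-ND4L at 9058 ± 719 overlapped, though MT-ND3 was the higher within each library. MT-ND6 was again last, at 3234 ± 549. MT-ND4 and MT-ND4L, which share an mRNA, differed in level per kilobase in all 4 groups. With 200 bases taken off each length, MT-ND4L and MT-ND3 came above MT-ND5 in high-MYC controls, so that the place of the shortest genes depends on how length is counted.

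The inhibitor called 0 of 7 members at high MYC, where 26.8% of tested genes were called. The median log2 change of the members was 0.01, against -0.02 for all tested genes. MT-ND4 with inhibitor measured 58477, 60065, 58587 and 58454, against 60945, 55284, 52074 and 49320 in DMSO. The treated libraries lay close together, within the wide range of the controls, whose replicate 1 was above all 4 treated libraries. The log2 change was 0.12 (0.02 to 0.21, unadjusted p = 0.0175, limma adjusted p = 0.0611). MT-ND5 showed the same layout, with 37034, 37861, 36932 and 36568 against 38231, 35150, 33510 and 31521, and a log2 change of 0.10 (0.01 to 0.20, unadjusted p = 0.0303, limma adjusted p = 0.0926).

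For the other 5 members the unadjusted p was above 0.05. Log2 changes of MT-ND1, MT-ND2, MT-ND3 and MT-ND4L were 0.01 (-0.11 to 0.13), -0.01 (-0.12 to 0.10), 0.02 (-0.12 to 0.15) and -0.01 (-0.15 to 0.13). MT-ND6 had -0.12 (-0.31 to 0.07, limma adjusted p = 0.366), with 2077, 2307, 1946 and 1926 against 2072, 2165, 2493 and 2249. These intervals leave room for changes of up to about 0.15 on the log2 scale in 4 genes and more in MT-ND6. edgeR called 1 member, MT-ND4 (0.12, edgeR adjusted p = 0.0395), where 26.9% of 13765 genes were called. DESeq2 called 0, where 10.6% of 28714 genes were.

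At high MYC the calls changed with a single library and also with the scaling and the tool. With equal library totals 2 members were called, with TMM scaling 1 and with edgeR without a filter 3. Of all tested genes 26.2%, 26.7% and 13.4% were called in these settings. DMSO replicate 1, the most deeply sequenced library at 13858534 reads, was the highest of its group for 6 of 7 members and the lowest for MT-ND6. Without it MT-ND4 was 0.17 higher with inhibitor (limma adjusted p = 0.00151) and MT-ND5 0.15 higher (limma adjusted p = 0.00629). Both were called, where 23.4% of tested genes were. The other 5 were still not called. DMSO replicate 4 was the lowest of the group for 6 of 7 members. Without it 0 of 7 were called, where 24.5% of tested genes were. MT-CO1, among the other mtDNA mRNAs, was called higher in the fit of all libraries, with 0.12 (limma adjusted p = 0.0159) and 1 of 6 called. Without DMSO replicate 4 it was not called (0.09, limma adjusted p = 0.0664). Its change was 0.00 under quantile normalization, where values depend on rank alone, so this value cannot show whether its level changed.

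At medium MYC 0 of 7 members were called, where 26.3% of tested genes were, and no member had an unadjusted p under 0.05. edgeR and DESeq2 called 0 each. MT-ND5 measured 22567, 22013, 20759 and 23155 with inhibitor against 22360, 22981, 24592 and 23389 in DMSO, a log2 change of -0.08 (-0.17 to 0.02, limma adjusted p = 0.227). MT-ND6 measured 1937, 1691, 1820 and 1967 against 1759, 1924, 1278 and 1832, a log2 change of 0.14 (-0.05 to 0.33, limma adjusted p = 0.285). One control library, replicate 3 at 1278, lay well below the other MT-ND6 values, and without it the change was 0.01 (limma adjusted p = 0.929). The log2 changes of the other 5 ran from -0.04 (MT-ND4) to 0.03 (MT-ND3), and treated and control libraries overlapped in all 7.

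The response was also compared between MYC levels, as the change at high MYC minus the change at medium MYC. Of the 7 members 0 were called, where 8.63% of tested genes were, and edgeR on the filtered reads and DESeq2 called 0 each. MT-ND5 had the value furthest above 0, at 0.18 (0.05 to 0.31, unadjusted p = 0.00947, limma adjusted p = 0.0843), then MT-ND4 at 0.16 (0.02 to 0.29, unadjusted p = 0.0241, limma adjusted p = 0.151). MT-ND6 had the opposite sign, at -0.26 (-0.53 to 0.01). Without DMSO replicate 1 at high MYC the differences were 0.21 for MT-ND4 (limma adjusted p = 0.00898) and 0.23 for MT-ND5 (limma adjusted p = 0.00729). Both were called, where 8.59% of tested genes were. Over all alternatives the limma, edgeR or DESeq2 adjusted p ran from 0.0090 to 0.833 for MT-ND4 and from 0.0070 to 0.564 for MT-ND5, and the value of MT-ND4 was -0.05 under quantile normalization.

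**Figure D3:**
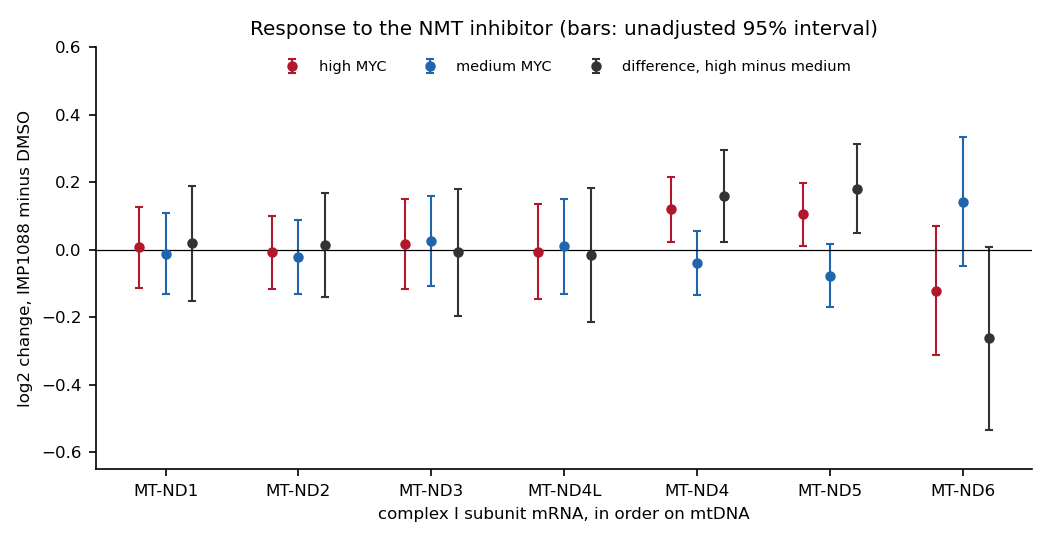
Log2 change with IMP1088 against DMSO (linear axis) of the 7 complex I mRNAs at high MYC (red), at medium MYC (blue), and the difference of the responses (black), with unadjusted 95% intervals from limma. Intervals of MT-ND4 and MT-ND5 at high MYC and in the difference lie above 0 before adjustment, and no value is called after it.

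Ratios between members do not depend on library scaling. The ratio to MT-ND4, chosen after the values were seen and given with no test, separated groups that the counts did not. MT-ND1 to MT-ND4 was 0.732 to 0.781 in high-MYC controls and 0.685 to 0.698 with inhibitor, without overlap. MT-ND2 to MT-ND4 was 0.671 to 0.702 and 0.621 to 0.634, also without overlap. MT-ND4L to MT-ND4, which share an mRNA, was 0.0648 to 0.0701 and 0.0566 to 0.0638. The ratios of MT-ND3, MT-ND5 and MT-ND6 overlapped, so 3 of 6 were lower in every treated library, where 21.6% of tested genes had a lower ratio to MT-ND4 without overlap. This was not particular to complex I: MT-CO2, MT-ATP6 and MT-ATP8 also had a lower ratio without overlap, while MT-CO1, MT-CO3 and MT-CYB overlapped.

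At medium MYC the MT-ND1 ratio was 0.520 to 0.562 in DMSO and 0.537 to 0.558 with inhibitor, which overlapped. A single ratio of 6 was apart there: MT-ND5 to MT-ND4 was 0.554 to 0.560 in DMSO and 0.537 to 0.549 with inhibitor, where 9.83% of tested genes were lower without overlap. Between MYC levels among controls the ratios of MT-ND1, MT-ND2 and MT-ND5 were apart, 3 of 6, where 16.2% of tested genes were lower. MT-ND5 to MT-ND4 was 0.627 to 0.644 at high MYC and 0.554 to 0.560 at medium MYC. Outside complex I, MT-ATP6 and MT-ATP8 also had a lower ratio among controls, and MT-CO1 and MT-CYB a higher one. With inhibitor the ratios of MT-ND1, MT-ND2 and MT-ND5 were again lower without overlap, where 14.8% of tested genes were. Those of MT-ND3, MT-ND4L and MT-ND6 were higher, where 62.6% were. A ratio within a library shows unequal change of counts and not which gene changed. MT-ND4L and MT-ND4 share an mRNA, so a ratio that is apart need not be an unequal change of mRNAs. Whether the ratios follow RNA levels was not tested.

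The mitochondrial rRNAs MT-RNR1 and MT-RNR2, read from the start of the same heavy-strand transcript, varied far more than the members between libraries. Their summed normalized count ran from 104 to 89384, and in 4 libraries it was above 20000: DMSO replicate 4 at high MYC with 46050, DMSO replicate 4 at medium MYC with 52200, and IMP1088 replicates 1 and 3 at medium MYC with 89384 and 50394. The lowest complex I values at high MYC in DMSO (replicate 4) and at medium MYC with inhibitor (replicate 3), each for 6 of 7 members, were in rRNA-rich libraries. In the other 2, DMSO replicate 4 and IMP1088 replicate 1 at medium MYC, 0 members were the lowest of their group and 1 was the highest. The part of these RNAs in the complex I values was not tested. Without the 4 libraries, the MYC contrast among controls was -0.90 for MT-ND1 and -0.61 for MT-ND5 with 7 of 7 lower, and with inhibitor it was -0.82 for MT-ND1 and -0.72 for MT-ND5 with 6 of 7 lower. The inhibitor contrast called 0 of 7 at each MYC level without these 4 libraries. On all 16 libraries MT-RNR1 and MT-RNR2 were themselves higher at medium MYC with inhibitor, by 5.09 and 5.23 on the log2 scale (limma adjusted p = 0.00179 and 0.00147). Among controls their changes were 1.85 and 1.98 (limma adjusted p = 0.219 and 0.189), and without DMSO replicate 4 at high MYC they were 3.54 and 3.67 (limma adjusted p = 0.00652 and 0.00546). All 22 mitochondrial tRNAs were listed at 0 in every library.

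**Figure D4:**
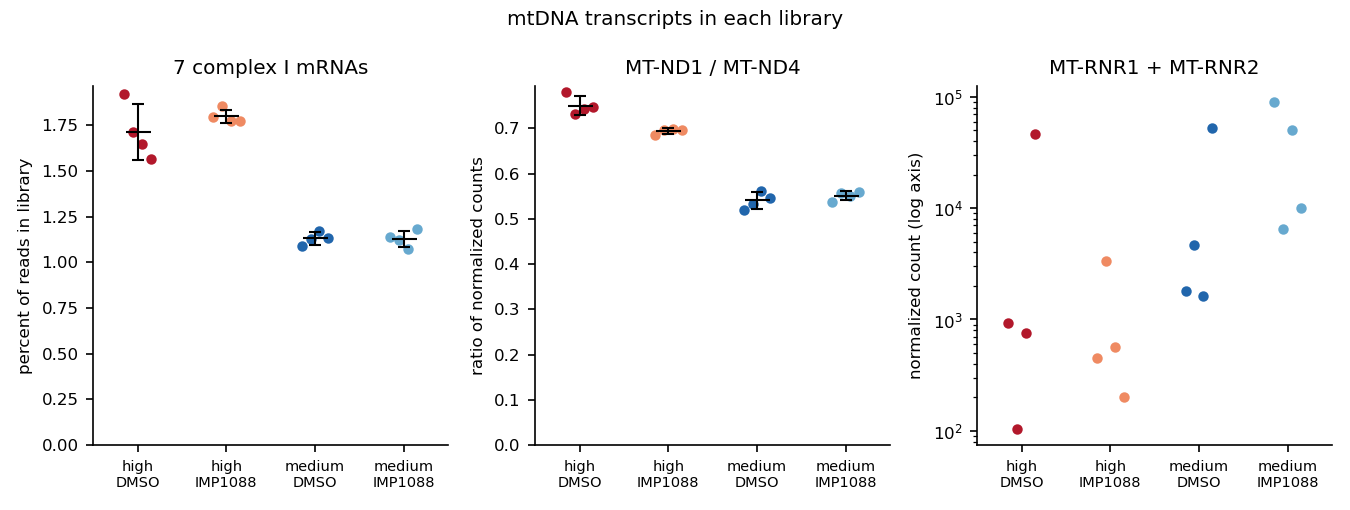
Share of all reads on the 7 complex I mRNAs (percent, linear axis from 0), ratio of MT-ND1 to MT-ND4 normalized counts (linear axis from 0) and summed normalized count of MT-RNR1 and MT-RNR2 (log axis) in each of the 16 libraries, with group mean and SD (n = 4) in the first 2 panels. The share and the ratio separate the MYC levels, whereas 4 libraries spread over 3 groups hold rRNA counts above 20000.

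Nuclear genes named after mitochondrial ones can take reads from the members. The table held 214 pseudogenes named after the 7 genes, of which 6 had a mean of at least 10. Among these 6, the copies on chromosome 1 had the highest identity: MTND1P23 at chr1:629062-629433 matched MT-ND1 at 96.8% of bases and MTND2P28 at chr1:629640-630683 matched MT-ND2 at 98.4%. Summed over all copies, pseudogene values were at most 0.276% of the member for MT-ND1, 0.253% for MT-ND5 and 1.58% for MT-ND6. Adding these reads to the members changed no call in the 5 comparisons.

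The profile of the members over the 16 libraries was described by the mean of their centred log2 values. Each member was set against the mean of the other 6. MT-ND6 had the lowest Pearson r, 0.57, and the others had 0.90 (MT-ND3) to 0.993 (MT-ND2). After the mean of each MYC level was removed, MT-ND6 had r = -0.39 and the others 0.70 (MT-ND5) to 0.88 (MT-ND2). Outside mtDNA the genes with the highest r against the mean of all 7 over 16 libraries were ANKRD17 (0.99), SLIRP, MEX3A, AATF and KRI1 (each 0.98). SLIRP encodes the partner of LRPPRC, an RNA-binding protein that stabilises mitochondrial mRNAs. As many as 2493 genes had r above 0.9, since all points share the split by MYC level. After that split was removed, ZBTB38 led with 0.88, then ANKRD17 (0.79), PTCRA (0.78), INO80D-AS1 (0.78) and ZNF749 (0.77), and 0 genes were above 0.9.

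Genes that make or maintain mitochondrial transcripts were grouped in lists by known function. Of 10 genes of mitochondrial transcription, 7 fell and 0 rose at medium MYC among controls, where 37.3% of tested genes were called lower and 38.9% higher. The list median was -0.86 on the log2 scale, against 0.02 for all tested genes. POLRMT, the mitochondrial RNA polymerase, fell from 758 ± 54.3 to 277 ± 30.1 normalized counts (SD, n = 4), a log2 change of -1.45 (limma adjusted p = 2.97e-13). TFB2M, which melts the promoter with it, fell by 1.65 on the log2 scale (limma adjusted p = 2.29e-14). With inhibitor 7 of 10 were again lower, where 37.8% of tested genes were. The inhibitor itself lowered 2 of 10 at high MYC, MRPL12 (-0.18, limma adjusted p = 0.0321) and TFB1M (-0.28, limma adjusted p = 0.0349), and POLRMT alone at medium MYC (-0.30, limma adjusted p = 0.00724). Of all tested genes 16.3% were lower with inhibitor at high MYC and 14.6% at medium MYC, so these counts are near the background. MRPL12 and TFB1M share exon bases with another gene, and their calls were lost in several alternatives.

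Of 25 genes for the processing and stability of mitochondrial RNA, 21 fell and 1 rose at medium MYC among controls (median -0.82), with the same counts under inhibitor. Among all tested genes, 37.3% were called lower and 38.9% higher in controls, and 37.8% and 39.7% under inhibitor. LRPPRC fell from 5804 ± 172 to 2599 ± 89.2, a log2 change of -1.16 (limma adjusted p = 2.44e-19). With inhibitor LRPPRC was higher at both MYC levels, by 0.14 at high MYC (limma adjusted p = 0.000601) and 0.21 at medium MYC (limma adjusted p = 7.09e-06). Of the 25 genes, 3 were called higher at each level, and 0 and 1 lower at high and medium MYC. Of all 13765 tested genes 1442 and 1606 were called higher, and 16.3% and 14.6% lower. No complex I member was called in these comparisons. PTCD2, a mitochondrial RNA-binding protein, fell by 1.73 on the log2 scale (limma adjusted p = 1.26e-16). Of 16 genes for mtDNA maintenance 15 were tested, and 10 fell and 4 rose among controls, beside the same 37.3% and 38.9% of all tested genes. TWNK, the mtDNA helicase, fell from 942 ± 18.7 to 199.9 ± 18.4, and TOP1MT, the mitochondrial topoisomerase, from 583 ± 7.69 to 144 ± 13.2. PTCD2 shares exon bases with MRPS27 and TWNK with MRPL43. The copy number of mtDNA was not measured.

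The nuclear genes of complex I were grouped by role. Of the 7 nuclear core subunits, which carry the flavin and iron-sulphur clusters, 5 fell and 0 rose among controls, with a median of -0.34 against -0.44 for the mtDNA-encoded members. NDUFV2 fell by 0.54 on the log2 scale (limma adjusted p = 5.57e-10) and NDUFS1 by 0.38 (limma adjusted p = 6.94e-09). Both share exon bases with other genes. Of 30 accessory subunits 16 fell and 6 rose (median -0.21), and of 18 assembly factors 14 fell and 1 rose (median -0.47). Beside the counts of these 3 lists, 37.3% of all tested genes were called lower and 38.9% higher. NDUFAF2, an assembly factor, fell by 1.67 on the log2 scale (limma adjusted p = 3.65e-15). The inhibitor called 0 of the 7 nuclear core subunits at either MYC level, as it called 0 of the 7 mtDNA-encoded subunits. Of all tested genes it called 26.8% at high MYC and 26.3% at medium MYC.

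NDUFAF4, at chr6:96889313-96897881, is an assembly factor of the membrane arm and is N-myristoylated, and NDUFB7 is a myristoylated accessory subunit, so both proteins are substrates of the enzymes that IMP1088 inhibits. NDUFAF4 mRNA measured 193 ± 25.9 normalized counts (SD, n = 4) in high-MYC controls and 191 ± 21.4 with inhibitor, a log2 change of -0.01 (limma adjusted p = 0.963). At medium MYC it measured 85.2 ± 5.53 and 68.1 ± 13.99, a log2 change of -0.34 (limma adjusted p = 0.0569). The difference of 0.33 did not pass the test (limma adjusted p = 0.317). Without IMP1088 replicate 2 at medium MYC the change there was called, at -0.46 (limma adjusted p = 0.00889). NDUFB7 had -0.13 at high MYC and -0.18 at medium MYC (limma adjusted p = 0.341 and 0.156). Proteins, and their myristoylation, were not measured.

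**Figure D5:**
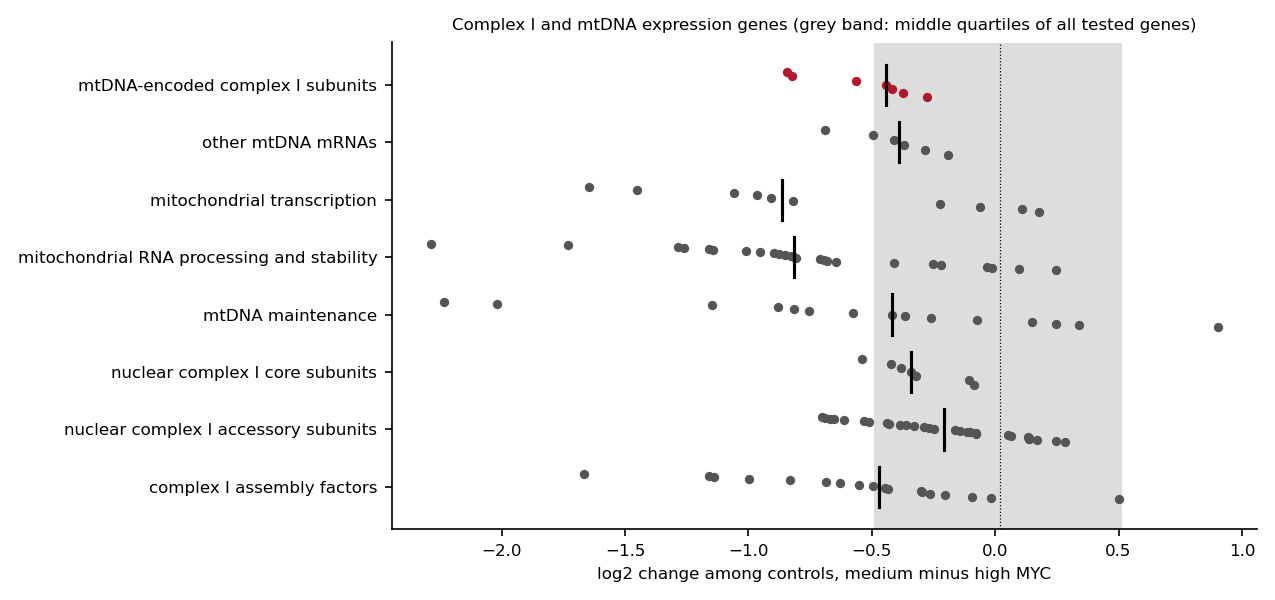
Log2 change at medium against high MYC among controls (linear axis) of the genes in 8 lists, 1 point a gene, with the list median as a black bar, the median of all tested genes as a dotted line and their middle quartiles as a grey band. The 7 mtDNA-encoded subunits (red) have their median at -0.44, to the right of the transcription list at -0.86 and of the RNA processing list at -0.82.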

How the data were processed

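Per the labels' protocols, a QIAGEN miRNeasy kit gave the RNA, a Nugen kit the cDNA and an Illumina HiSeq the reads. The submitters' processing notes name STAR 2.5.2a, RSEM 1.2.31, DESeq2 1.16.1 and GRCh38, with no role or order, and the annotation is not given in the sources used here. The authors deposited a signal per gene and library, named normalized counts. In each library 100.0% of values were whole multiples of 1 step (within 0.001 reads), so whole reads were recovered, with size factors of 0.858 to 1.33. Symbols matched 56948 of 58051 identifiers, and 57447 were in GENCODE 29.

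Groups were compared on log2(normalized count + 1) with limma 3.58.1 (R 4.3.3), two-sided, with a mean trend and 4 group means over 16 libraries in 1 fit, for 13765 genes with a mean of at least 10. Benjamini-Hochberg adjustment ran over all of these. The comparisons share libraries. edgeR 4.0.16 and DESeq2 1.42.0 ran on recovered reads as alternatives (edgeR called 3703 genes for the inhibitor at high MYC and 3858 at medium MYC), beside other scalings, pseudocounts, filters, replicate blocks and left-out libraries. On simulated counts of 13765 genes for the inhibitor at high MYC, limma recovered 85.5% of 200 changed genes. Of those changed by 0.5 on the log2 scale it recovered 68.1%, and it called 22 of the unchanged genes. Genes were simulated independently with a single dispersion, whereas most members varied together between libraries. Recovery of changes as small as those of the members with inhibitor was not tested. The members and lists were chosen with earlier results of these data known. Named beyond the members were the other mtDNA mRNAs and rRNAs, up to 2 called genes with the smallest p in each list and comparison, NDUFAF4, NDUFB7 and the 5 most alike profiles; not all are reported.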

Additional observations from a re-analysis of the deposited data

Results flagged for a closer look

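In groups of 4 libraries, a library was looked at again when its gap to its nearest neighbour, divided by the range of the group, was above Dixon's 95% critical value for 4 samples. Chance flags about 1 in 20 such groups, and 11 of 76 were flagged. Among the members these were MT-ND2 and MT-ND4 at high MYC with inhibitor, with ratios of 0.834 and 0.918. In both the library apart was replicate 2, the highest, at 38111 for MT-ND2 and 60065 for MT-ND4, and replicate 2 was the highest of that group for all 7 members. The part of the 7 members among mtDNA mRNAs in medium-MYC controls was flagged at 0.830, where replicate 2 held 34.9% and the other libraries 34.5% to 34.6%. MT-ATP8 was flagged in medium-MYC controls at 0.886, with replicate 1 lowest at 1872, and MT-CO1 at medium MYC with inhibitor at 0.844, with replicate 3 lowest at 110456. The rRNAs were flagged in 3 groups. MT-RNR1 had 0.983 in high-MYC controls, 0.881 at high MYC with inhibitor and 0.941 in medium-MYC controls, and MT-RNR2 had 0.981, 0.885 and 0.939.

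In the test of the difference in response, 2 genes of the lists passed. FASTKD1, a regulator of mitochondrial mRNA levels, had a difference of 0.26 (limma adjusted p = 0.0163), with 874 ± 34.0 and 883 ± 24.4 normalized counts (SD, n = 4) in control and treated libraries at high MYC and 658 ± 41.9 and 553 ± 29.9 at medium MYC. FOXRED1, a complex I assembly factor, had -0.29 (limma adjusted p = 0.0170), with 434 ± 14.7 and 378 ± 15.7 at high MYC and 361 ± 20.9 and 386 ± 21.2 at medium MYC. FOXRED1 shares exon bases with SRPRA, and without the 4 rRNA-rich libraries its difference was -0.19 (limma adjusted p = 0.292).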

How the results depend on the processing

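Among controls 7 of 7 members were lower at medium MYC in each of 24 alternatives, and with inhibitor 6 or 7 of 7. For the inhibitor at high MYC the count of members called was 0, but 2 with equal library totals and 1 with TMM scaling. It was 1 with edgeR and 3 with edgeR without a filter. Of all tested genes 26.2%, 26.7%, 26.9% and 13.4% were called in these settings. The count was 0 to 2 when each library was left out (2 without DMSO replicate 1, where 23.4% of genes were called). At medium MYC the count was 0, but 1 with edgeR without a filter, where 13.4% of genes were called. For the difference in response it was 0, but 3 with edgeR without a filter (4.87% of genes) and 0 to 2 when each library was left out. The cause was not tested. Leaving out the 4 rRNA-rich libraries, chosen after the data were seen, took the genes called from 3618 to 2296 at medium MYC and from 1188 to 627 for the difference, with fewer libraries in the fit. The share of reads on mtDNA at medium MYC with inhibitor was 3.69%, and 3.31% without the rRNAs. Per kilobase MT-ND4 was 9.31 times MT-ND6 at high MYC, and 6.74 times with 200 bases off each length. Under quantile normalization MT-CO3 at medium MYC (0.22) and the differences of MT-CO1 (-0.18) and MT-CO3 (-0.38) had the other sign. Such values follow ranks within a library and not the size of a change. With this scaling the inhibitor at high MYC gave 1727 genes higher and 1770 lower, against 1442 and 2247.

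The residual r of same-numbered libraries ran from -0.154 to 0.239 and was above 0.1 in 1 of 16 pairs, replicate 4 of both DMSO groups, which are both rRNA-rich. The libraries were therefore not treated as paired by number. With the replicate number as a block, 0, 0 and 0 members were called in the inhibitor comparisons and the difference, and 7 and 6 in the MYC contrasts, and the genes called over the table were 3468, 3425, 1052, 10419 and 10601. With the block nested in MYC level they were 3496, 3442 and 1026 in the first 3. A nested block was not run for the MYC contrasts. Depth limits MT-ND6 most, at 1460 to 2751 reads.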

Other observations

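Accessory subunits of complex I, which are nuclear genes outside the mtDNA-encoded set, were called lower with inhibitor in 5 of 30 cases at high MYC, where 16.3% of all tested genes were, and in 7 of 30 at medium MYC, where 14.6% were. At high MYC 1 of 30 rose, and at medium MYC 0 did. NDUFA13, an accessory subunit first described for a role in cell death, fell from 828 ± 20.9 to 564 ± 37.9 normalized counts (SD, n = 4) at high MYC, a log2 change of -0.55 (limma adjusted p = 5.27e-08), and from 859 ± 51.8 to 531 ± 25.01 at medium MYC, a change of -0.69 (limma adjusted p = 1.45e-09). Its exons share 437 bases with AC011448.1 and 131 with YJEFN3. NDUFB5 fell by 0.37 on the log2 scale at medium MYC (limma adjusted p = 9.55e-05) and NDUFA6 by 0.27 at high MYC (limma adjusted p = 0.000413). NDUFA6 shares exon bases with NDUFA6-DT. RRM2B, a ribonucleotide reductase subunit that supplies nucleotides for mtDNA, rose from 609 ± 53.9 to 729.8 ± 41.8 at high MYC (0.26, limma adjusted p = 0.00345) and from 675 ± 58.9 to 957 ± 32.004 at medium MYC (0.51, limma adjusted p = 2.75e-06).

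Counts listed for nuclear copies of the members did not all follow them. The copies named here had low means, of 16.3 to 25.7, and where their reads came from was not tested. MTND1P23 and MTND2P28 on chromosome 1, at 96.8% and 98.4% identity, were lower at medium MYC among controls (-0.98 and -0.85, limma adjusted p = 0.00437 and 0.00586). MTND1P11, MTND4P14 and MTND5P14, which lie together on chromosome 9 at 73.0% to 74.3% identity, were higher (1.38, 1.59 and 1.90, limma adjusted p = 1.44e-05, 4.91e-05 and 1.00e-06).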
